A study of Rattus norvegicus with 18 samples.

Results

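The genes described here are 9 members of the apoptosis machinery: the pore formers Bax and Bak1, the BH3-only genes Bbc3 and Bid, the guardians Bcl2, Bcl2l1 and Mcl1, the death receptor gene Fas and the initiator caspase gene Casp8. They were chosen by name from a table of 32116 genes measured in rat kidney, of which 13851 passed a filter on low values and were tested, all 9 members among them. The table names 8 of the 9 by symbol. The row used for Bcl2 carries its identifier, ENSRNOG00000067693, in place of a symbol and was found by its deposited description. RNA sequencing of whole kidney gave 18 libraries in 3 groups of 6. NC rats had no treatment, CKD rats took adenine (100 mg/kg daily), and SZ rats took adenine at the same daily dose plus SZ-A (300 mg/kg daily), so that both adenine groups share the adenine. What SZ-A is, and the rats' age, strain and time of sampling, are not given here. The labels number the libraries without saying whether 6 animals stand behind 6 libraries, and p-values then measure only library-to-library spread, which may be technical.

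Apoptosis is controlled at the outer membrane of the mitochondrion by the BCL2 family. BAX and BAK1 form pores that release cytochrome c, the guardians BCL2, BCL2L1 (BCL-XL) and MCL1 hold them in check, and BH3-only proteins such as PUMA (the product of Bbc3) and BID bind guardians or activate the pore formers. In the extrinsic arm, FAS is a cell surface receptor whose ligation activates caspase-8, which cleaves executioner caspases and BID. In kidney, tubular cells are known to undergo apoptosis after toxic and ischaemic injury, while MCL1 and BCL2L1 are regarded as survival factors of tubular cells. Much of this control acts on proteins, by cleavage, binding and movement between compartments, and transcript levels do not measure it.

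The promoters of Bak1, Mcl1 and Fas are printed because these genes (a pore former, a guardian and a death receptor) all rose in CKD against NC and each holds a GC box, the motif bound by SP1-type factors, within its upstream bases. The sequences are RefSeq's on build GRCr8 (the expression table is on another build, mRatBN7.2), run 5′ to 3′ on the gene's strand, end at the base before the transcription start and have the GC box in capitals. They are Bak1 on the minus strand at chr20:5110975-5111224, Mcl1 on the plus strand at chr2:185907918-185908167 and Fas on the plus strand at chr1:241211905-241212154.
Bak1: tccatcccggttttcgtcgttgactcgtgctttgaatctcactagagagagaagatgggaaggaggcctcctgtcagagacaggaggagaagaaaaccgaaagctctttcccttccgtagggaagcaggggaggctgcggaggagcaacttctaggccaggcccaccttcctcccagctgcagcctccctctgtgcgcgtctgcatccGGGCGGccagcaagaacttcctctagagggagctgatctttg
Mcl1: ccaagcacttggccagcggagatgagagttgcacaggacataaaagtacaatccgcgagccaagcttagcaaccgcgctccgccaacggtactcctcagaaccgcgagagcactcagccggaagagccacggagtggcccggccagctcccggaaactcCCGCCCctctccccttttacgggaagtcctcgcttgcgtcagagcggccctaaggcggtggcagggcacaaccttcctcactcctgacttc
Fas: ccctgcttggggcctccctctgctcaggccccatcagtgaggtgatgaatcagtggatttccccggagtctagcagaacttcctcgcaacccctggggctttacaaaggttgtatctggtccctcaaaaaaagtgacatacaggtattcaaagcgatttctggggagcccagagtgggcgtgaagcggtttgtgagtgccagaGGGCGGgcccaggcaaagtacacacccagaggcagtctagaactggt
The GC box, searched as GGGCGG on both strands, began 42 bases before the start in Bak1, 91 in Mcl1 and 47 in Fas. It stood in 11066 of 33469 promoter windows of 300 bases in the whole table (33.1%), so a match is common and is a description only. The promoter table matched 6 of the 9 members with 9 windows in all, and 5 of the 6 members hold a GC box. Among them are Bid, with 3, and Bcl2l1, with 1 in 1 of its 4 windows, and neither of these genes was called in any comparison on the deposited scale.

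Libraries held 15354358 to 18532375 reads, recovered from the deposited FPKM values (read fragments for each kilobase of gene, on the authors' depth scaling). Markers of the kidney were present in every library, with Umod at 99.3 to 1369 FPKM, Lrp2 at 26.8 to 198 FPKM and Aqp2 at 59.7 to 386 FPKM. In CKD 5, SZ 3 and CKD 2, long genes read low: log2 expression changed by -0.31, -0.25 and -0.21 for each doubling of gene length relative to the average library, against -0.10 in CKD 1 and 0.011 to 0.11 in the other libraries. Counts of members called and the pore former ratios are given with and without these 3 libraries, as are members' values that moved with them. The share of mitochondrial transcripts ran from 14.7% to 24.1% of reads in NC, from 5.86% to 16.02% in CKD and from 11.1% to 18.4% in SZ. The library sizes behind the deposited FPKM matched, within 1.6e-08%, median-ratio sizes of the recovered reads. Such a size is the median over genes of a library's reads relative to the gene's average library. The sizes averaged 0.896 of the recovered total in NC, 1.14 in CKD and 1.04 in SZ. Scaling to a fixed FPKM sum (TPM) therefore moved the median of all genes in CKD against NC from -0.04 to 0.37 on the log2 scale, and plain totals moved it to 0.25. The share of higher genes among those called went from 48.4% to 83.7% and 77.6% in CKD against NC, from 37.9% to 15.02% and 17.9% in SZ against CKD, and from 59.1% to 93.3% and 88.3% in SZ against NC. In whole kidney, fewer cells of a type and less RNA per cell cannot be told apart.

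By level, Mcl1 stood first in every group and Bcl2l1 second, and the lowest places were held by Fas, Bbc3 and Bcl2. In NC the order of mean FPKM was Mcl1, Bcl2l1, Bid, Bax, Bak1, Casp8, Bcl2, Bbc3 and Fas. The library ranges of neighbours did not overlap between Mcl1 and Bcl2l1, Bcl2l1 and Bid, Casp8 and Bcl2, and Bcl2 and Bbc3, and they overlapped for the other neighbours. In CKD Bak1 and Bax stood above Bid, and Bbc3 and Fas stood above Bcl2, although their ranges overlapped there. In SZ the order was Mcl1, Bcl2l1, Bak1, Bid, Bax, Casp8, Bbc3, Bcl2 and Fas, with ranges apart for Mcl1 and Bcl2l1, for Bcl2l1 and Bak1, and for Casp8 and Bbc3.

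**Figure D1:**
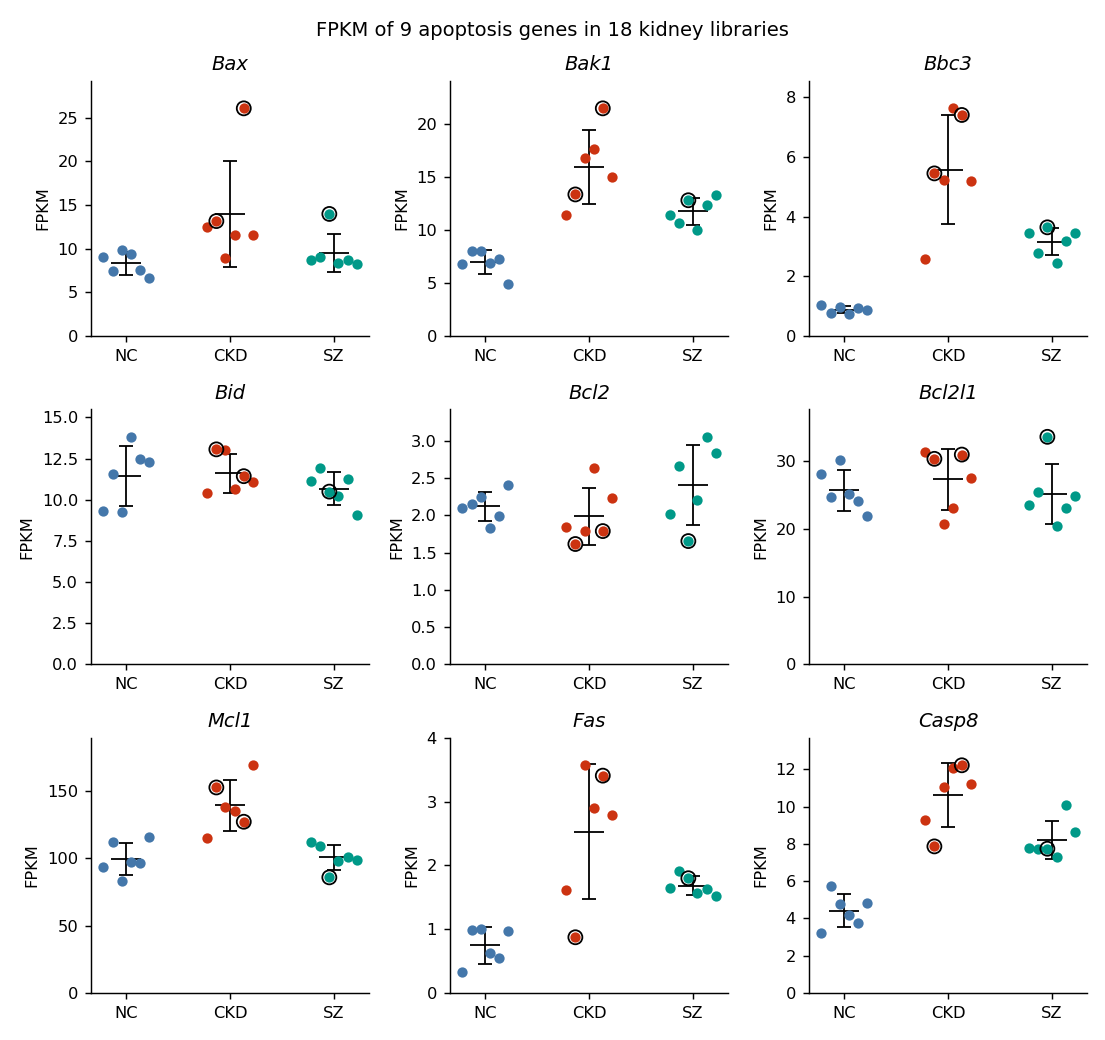
FPKM of the 9 members in each of the 18 libraries, 1 panel per gene on its own linear axis, with points for libraries, bars for the mean and SD of 6 libraries and black rings around CKD 2, CKD 5 and SZ 3. Bak1, Bbc3 and Casp8 have every CKD library above every NC library, and the highest Bax values, 26.1 in CKD 5 and 14.0 in SZ 3, are ringed.

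In CKD against NC 6 of the 9 members rose (Bax, Bak1, Bbc3, Mcl1, Fas and Casp8), 0 fell (0 by limma voom on recovered reads and 0 at an unadjusted limma p under 0.05), and Bid, Bcl2 and Bcl2l1 did not pass the test. Among all genes tested 50.3% were called in this comparison with 24.4% called higher and 26.0% called lower. Bbc3 and Fas, among the 6, passed the filter on low values through the adenine groups. The counts of members called higher than NC are thus a description only. The members' median change was 0.62 on the log2(FPKM + 1) scale, against -0.04 for all genes. With SZ-A added to adenine, 2 members fell relative to CKD, Bbc3 and Mcl1, where 11.0% of all genes were called with 6.82% called lower and 4.16% higher. The other 7 did not pass the test after adjustment (5 members were lower at an unadjusted limma p under 0.05), although 8 of the 9 estimates were negative, and the median was -0.33 against 0.01 for all genes. In SZ against NC, 4 members were still higher, Bak1, Bbc3, Fas and Casp8, where 21.1% of all genes were called with 12.5% called higher and 8.61% lower, and the members' median was 0.16 against -0.04 for all genes. CKD against NC and SZ against CKD share the CKD libraries, so opposite signs in the 2 are not independent. Without CKD 2, CKD 5 and SZ 3 the counts were 6 higher in CKD against NC, 1 lower in SZ against CKD and 4 higher in SZ against NC. Scaling to a fixed FPKM sum gave 8 higher, 3 lower and 4 higher in the same order, where 47.5% of all genes were called higher, 11.6% lower and 25.6% higher.

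**Figure D2:**
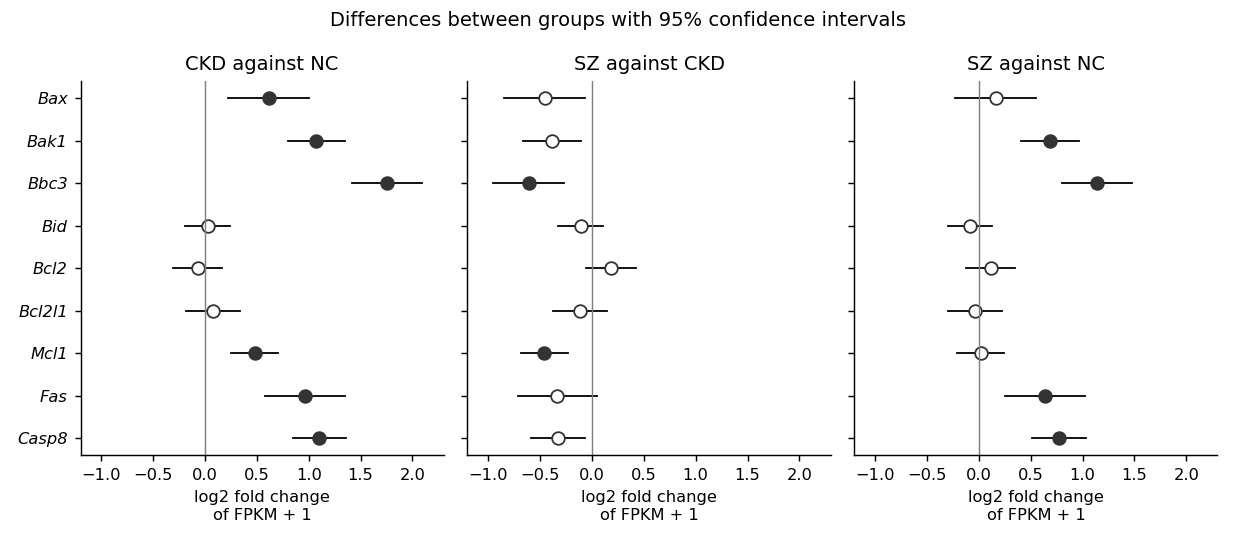
Log2 fold change on the log2(FPKM + 1) scale of the 9 members in CKD against NC, SZ against CKD and SZ against NC, with 95% confidence intervals from limma and filled points for genes called at an adjusted p under 0.05. Filled points mark 6, 2 and 4 members in the 3 comparisons.

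Bak1 encodes the pore former that sits in the outer membrane of mitochondria. Its gene lies at chr20:5100480-5109264 on the minus strand (mRatBN7.2, ENSRNOG00000000485), within Ggnbp1 on the plus strand, which read only 0.157 to 1.18 FPKM. Bak1 read 4.94, 7.07 and 8.01 FPKM (lowest, median, highest of 6) in NC, 11.4, 15.9 and 21.5 in CKD and 10.04, 11.9 and 13.3 in SZ. Every adenine library, with or without SZ-A, lay above every NC library, and the ranges of CKD and SZ overlapped. Bak1 rose by 1.07 (log2, SE 0.13, n = 6 and 6, limma adjusted p = 3.6e-06) in CKD against NC, where 26.5% of all genes had ranges that did not overlap (14.2% higher, 12.2% lower), and was called under 31 of 31 alternatives. It was higher in SZ than in NC by 0.69 (SE 0.13, limma adjusted p = 0.0013). The change from CKD to SZ was -0.39 (SE 0.13, limma adjusted p = 0.063) and did not pass the test. It passed under 4 of 31 alternatives: with array weights (limma adjusted p = 0.018), plain library totals (0.040), without CKD 1 (0.014) and without SZ 3 (0.045). Without CKD 2, CKD 5 and SZ 3 it was -0.36 (adjusted p = 0.10), and the adjusted p reached 0.16 over the alternatives.

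Bax encodes the pore former that is cytosolic until activated. The gene lies at chr1:95938808-95945368 on the minus strand (ENSRNOG00000020876) and shares 918 bases with Ftl1, the ferritin light chain gene on the same strand. Bax read 6.58, 8.34 and 9.80 FPKM in NC, 8.94, 12.0 and 26.1 in CKD and 8.22, 8.69 and 14.0 in SZ. All 3 ranges overlapped, and 1 library stood far above its group in each adenine group: CKD 5, with 13.2 FPKM as the next value, and SZ 3, with 9.07 as the next. Bax rose by 0.62 (SE 0.19, limma adjusted p = 0.010) in CKD against NC. Without CKD 2, CKD 5 and SZ 3 the rise was 0.38 (limma adjusted p = 0.0080), and without CKD 5 alone it was 0.43 (0.015). Ftl1, at 943 to 1190 FPKM in NC, was highest in the same libraries, at 1515 FPKM in CKD 5 and 1296 in SZ 3, and its change in CKD against NC was -0.24 (SE 0.21, limma adjusted p = 0.36). The part of the shared bases and of the length slope in the Bax values was not tested, and with the length correction the rise was 0.56. In SZ against CKD the estimate for Bax was -0.45 (SE 0.19, limma adjusted p = 0.12) and did not pass the test. It passed under 2 of 31 alternatives, without SZ 3 (-0.56, adjusted p = 0.037) and on the TPM scale (-0.62, adjusted p = 0.040). Without CKD 2, CKD 5 and SZ 3 it was -0.33 (adjusted p = 0.071), and the adjusted p reached 0.26 over the alternatives. In SZ against NC it was 0.16 (limma adjusted p = 0.58, 95% interval -0.23 to 0.55).

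**Figure D3:**
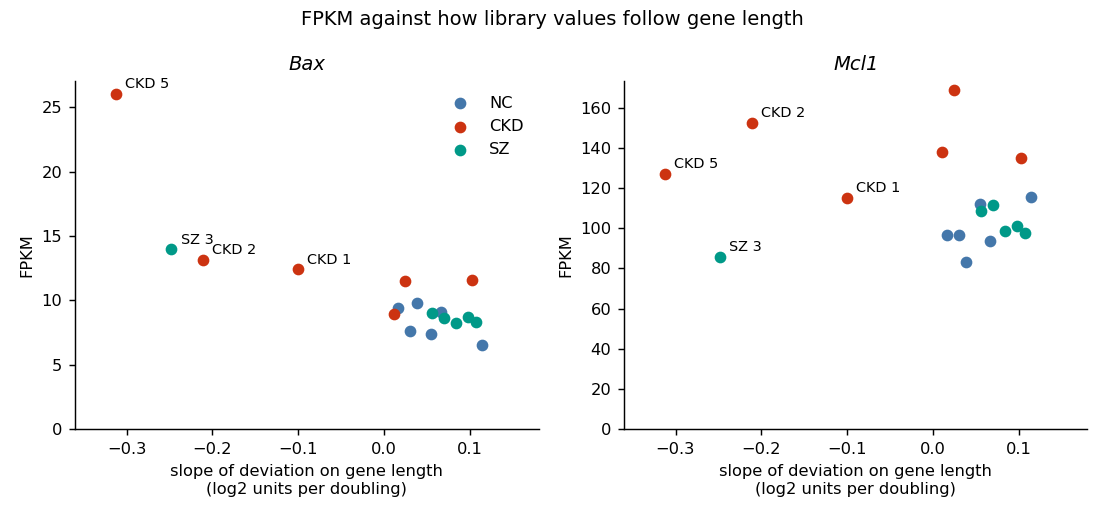
FPKM of Bax and Mcl1 in each library (linear vertical axes) against the library's length slope, in log2 expression per doubling of gene length relative to the average library. CKD 5, at a slope of -0.31, and SZ 3, at -0.25, have the highest Bax value of their groups, and SZ 3 has the lowest Mcl1 value of the SZ libraries (85.8 FPKM).

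Bbc3, which encodes the BH3-only protein PUMA, changed most among the members by fitted fold. The gene lies at chr1:77014543-77022509 on the plus strand (ENSRNOG00000062473). It read 0.737, 0.899 and 1.04 FPKM in NC, 2.57, 5.34 and 7.63 in CKD and 2.46, 3.31 and 3.64 in SZ, from 21 to 320 reads per library. All adenine libraries lay above all NC libraries, and CKD 1, the lowest of CKD, lay within the SZ range while the other CKD libraries lay above it. Bbc3 rose by 1.75 (SE 0.16, limma adjusted p = 1.6e-07) in CKD against NC and was higher in SZ than in NC by 1.14 (SE 0.16, limma adjusted p = 8.3e-05). It fell by 0.61 (SE 0.16, limma adjusted p = 0.024) in SZ against CKD. That call was lost without CKD 2, CKD 5 and SZ 3 together (-0.54, adjusted p = 0.071), without CKD 4 (0.051), CKD 5 (0.065), SZ 2 (0.053) or SZ 4 (0.067), and when only these groups were fitted (0.077). Bbc3 reached 1 FPKM in 1 NC library only, so it passed the filter on low values through the adenine groups.

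Bid, whose product carries the signal of caspase-8 to mitochondria, did not pass the test in any of the 3 comparisons. The gene lies at chr4:154113198-154134720 on the minus strand (ENSRNOG00000012439). It read 9.28, 11.9 and 13.8 FPKM in NC, 10.4, 11.3 and 13.1 in CKD and 9.05, 10.8 and 11.9 in SZ. All 3 ranges overlapped widely. The difference of CKD from NC was 0.03 (SE 0.10, limma adjusted p = 0.85) with a 95% interval of -0.19 to 0.24. The interval of SZ against CKD was -0.33 to 0.10, and that of SZ against NC was -0.30 to 0.13. On other scalings Bid was called higher in CKD than in NC, by 0.46 with TPM (limma adjusted p = 0.0041) and by 0.35 with plain totals (0.0096), where the median gene moved up by a similar amount.

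Mcl1 encodes the short-lived guardian that binds BAK1 and most BH3-only proteins. The gene lies at chr2:183219220-183222303 on the plus strand (ENSRNOG00000063678). It read 83.4, 96.8 and 115.5 FPKM in NC, 115.2, 136 and 169 in CKD and 85.8, 99.9 and 112 in SZ. CKD and SZ did not overlap, CKD and NC met only at CKD 1 and NC 6, and the SZ range lay within that of NC. Mcl1 rose by 0.48 (SE 0.11, limma adjusted p = 0.0013) in CKD against NC and fell by 0.46 (SE 0.11, limma adjusted p = 0.015) in SZ against CKD. It was the only member whose ranges were apart in SZ against CKD, where 2.26% of all genes were apart (1.63% lower, 0.628% higher). Over the alternatives, 31 of 31 kept the fall, with adjusted p from 0.0038 to 0.049. SZ differed from NC by 0.02 (SE 0.11, limma adjusted p = 0.93), with a 95% interval of -0.21 to 0.25. Without CKD 2, CKD 5 and SZ 3 the rise was 0.47 and the fall was -0.41 (adjusted p = 0.035).

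Bcl2l1 and Bcl2 encode the guardians BCL-XL and BCL2, and neither passed the test in any of the 3 comparisons. Bcl2l1 lies at chr3:141253523-141303479 on the minus strand (ENSRNOG00000007946) and read 21.8, 24.8 and 30.1 FPKM in NC, 20.7, 28.9 and 31.3 in CKD and 20.4, 24.1 and 33.5 in SZ. Its highest value in SZ was in SZ 3, and all ranges overlapped. The difference of CKD from NC was 0.08 (SE 0.12, limma adjusted p = 0.62), with an interval of -0.18 to 0.34. In SZ against CKD the estimate was -0.11 (interval -0.38 to 0.15). Bcl2 lies at chr13:22684989-22853743 on the minus strand and read 1.84, 2.13 and 2.40 FPKM in NC, 1.62, 1.82 and 2.64 in CKD and 1.66, 2.44 and 3.05 in SZ, again with overlap throughout. The Bcl2 difference was -0.07 (SE 0.11, limma adjusted p = 0.61, interval -0.31 to 0.17) in CKD against NC and 0.18 (SE 0.11, limma adjusted p = 0.29, interval -0.05 to 0.42) in SZ against CKD. Bcl2 was thus the member with a positive estimate in SZ against CKD. With TPM and plain totals Bcl2l1 was called higher in CKD than in NC, by 0.53 (limma adjusted p = 0.0020) and 0.41 (0.0099), and the Bcl2 estimate turned positive, to 0.28 and 0.16, without passing the test.

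Casp8 encodes the initiator caspase of the extrinsic arm. The gene lies at chr9:60264075-60312542 on the plus strand (ENSRNOG00000012331). It read 3.19, 4.50 and 5.71 FPKM in NC, 7.86, 11.1 and 12.2 in CKD and 7.29, 7.76 and 10.1 in SZ. Every adenine library lay above every NC library, and CKD and SZ overlapped. Casp8 rose by 1.10 (SE 0.12, limma adjusted p = 1.2e-06) in CKD against NC and was higher in SZ than in NC by 0.77 (SE 0.12, limma adjusted p = 0.00023). The change from CKD to SZ was -0.33 (SE 0.12, limma adjusted p = 0.088), short of the threshold. It passed under 2 of 31 alternatives, without CKD 2 (-0.40, adjusted p = 0.041) and with array weights (-0.36, adjusted p = 0.043), and the adjusted p reached 0.19 over the others.

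Fas encodes the death receptor itself and had the lowest mean level in NC, where its range overlapped that of Bbc3. The gene lies at chr1:231798960-231832591 on the plus strand (ENSRNOG00000019142). Fas read 0.322, 0.802 and 0.999 FPKM in NC, 0.873, 2.85 and 3.57 in CKD and 1.52, 1.64 and 1.92 in SZ, from 12 to 185 reads per library. CKD 2 lay within the NC range and the other CKD libraries lay above it, while every SZ library lay above NC. Fas rose by 0.97 (SE 0.18, limma adjusted p = 0.00028) in CKD against NC, and by 1.08 without CKD 2, CKD 5 and SZ 3. It was higher in SZ than in NC by 0.63 (SE 0.18, limma adjusted p = 0.020), a call lost without NC 1 (adjusted p = 0.052). The change from CKD to SZ was -0.33 (SE 0.18, limma adjusted p = 0.24) and did not pass the test. It passed under 2 of 30 alternatives, without CKD 2 (-0.50, adjusted p = 0.038) and with array weights (-0.47, adjusted p = 0.040), and the adjusted p reached 0.46 over the others. Fas was at or above 1 FPKM in 0 NC libraries, so it too passed the filter only through the adenine groups.

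By range, 3 members lay wholly above NC in CKD (Bak1, Bbc3 and Casp8), where 26.5% of all genes had ranges apart (14.2% higher). In SZ there were 4 (these and Fas), where 14.6% of all genes had ranges apart from NC (8.86% above, 5.70% below). Bbc3 and Fas passed the filter on low values through the adenine groups, so these counts are a description only.

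The balance between a pore former and a guardian was described within each library as the log2 ratio of FPKM + 1, with no test. The mean ratio of Bax to Bcl2 over 6 libraries was 1.57 in NC (SD 0.26), 2.25 in CKD (SD 0.56) and 1.62 in SZ (SD 0.46). NC ran from 1.16 to 1.88, CKD from 1.79 to 3.28 and SZ from 1.26 to 2.50, with the highest values in CKD 5 and SZ 3. Without CKD 2, CKD 5 and SZ 3 the means were 1.57, 1.95 and 1.44, so the CKD mean remained the highest of the groups and the ranges of NC and CKD met between 1.79 and 1.88. The ratio of Bak1 to Bcl2l1 was -1.75 in NC (SD 0.17), -0.75 in CKD (SD 0.44) and -1.02 in SZ (SD 0.19). Its NC libraries, at -1.94 to -1.51, lay below all CKD libraries, at -1.38 to -0.28, and all SZ libraries, at -1.32 to -0.85. Bak1 alone was apart from NC in the same way and Bcl2l1 was not called, so this ratio is not a separate result. Bax to Bcl2l1 went from -1.52 in NC (SD 0.10) to -0.98 in CKD (SD 0.38) and -1.32 in SZ (SD 0.11), and its CKD mean was -1.13 without the 3 libraries. Bax to Mcl1, where both genes rose in CKD, was -3.44 in NC (SD 0.36), -3.30 in CKD (SD 0.58) and -3.29 in SZ (SD 0.38), and its ranges overlapped throughout. Without the 3 libraries its means were -3.44, -3.53 and -3.44, so the order of CKD and NC turned. Those of Bak1 to Bcl2l1 were then -1.75, -0.72 and -0.96.

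**Figure D4:**
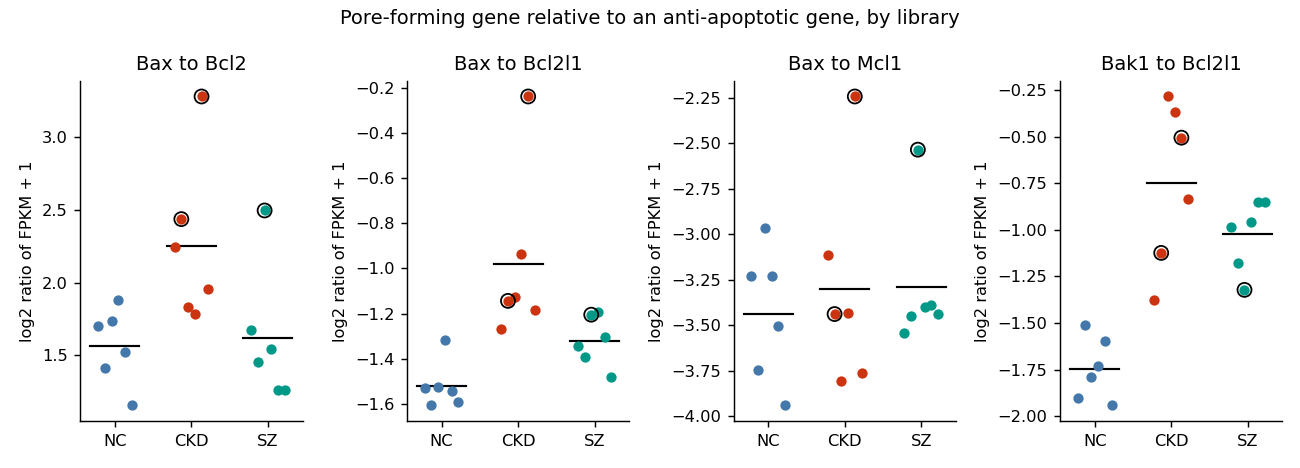
Log2 ratio of FPKM + 1 for 4 pairs of a pore former and a guardian in each library, with lines at group means of 6 libraries and black rings around CKD 2, CKD 5 and SZ 3. The ratio of Bak1 to Bcl2l1 has no overlap between NC and either adenine group, and that of Bax to Mcl1 overlaps in all 3.

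Markers of several other cell types moved with the groups, and those of others did so in part. Of 10 macrophage markers, 10 were called higher in CKD than in NC and 9 fell in SZ against CKD, and their summed level ran from 112 to 213 FPKM in NC, 1045 to 2205 in CKD and 431 to 954 in SZ. T and NK cell markers summed to 4.35 to 10.3 FPKM in NC, 12.5 to 38.1 in CKD and 11.7 to 23.1 in SZ, with 5 of 8 tested called higher in CKD. Of all genes tested, 24.4% were called higher and 26.0% lower in CKD against NC, and 6.82% lower in SZ against CKD. Cd163, Itgam, Cd3e and Cd3d read at most 0.145, 0.619, 0.443 and 0.413 FPKM in NC. They passed the filter on low values only through the adenine groups, so the counts called higher are a description only. Neutrophil markers summed to 0.479 to 6.86, 4.60 to 23.3 and 2.88 to 8.82 FPKM, with Elane at 0 in all NC libraries and Mpo at 0 in all SZ libraries. Proximal tubule markers summed to 3132 to 4151 FPKM in NC, 626 to 1776 in CKD and 1789 to 3210 in SZ, and 7 of 8 fell in CKD. Injured tubule markers summed to 47.9 to 198 FPKM in NC, 7026 to 12078 in CKD and 2856 to 7560 in SZ. Most of these sums was Spp1, with means of 9344 FPKM in CKD and 4792 in SZ. Of the injured tubule markers tested, 4 of 4 were called higher in CKD and 4 of 4 did not pass the test in SZ against CKD. Havcr1, among them, read 0.128 to 1.13 FPKM in NC and passed the filter on low values through the adenine groups. The 4 of 4 called higher is thus a description only. Fibroblast markers summed to 31.9 to 130 FPKM, 201 to 649 and 143 to 219. Distal nephron markers fell in CKD in 6 of 7 cases and podocyte markers in 4 of 4, but 6 of 7 and 4 of 4 did not pass the test in SZ against CKD. Their sums ran from 1075 to 2106 FPKM in NC, 486 to 928 in CKD and 615 to 752 in SZ for distal nephron, and from 125 to 211, 48.3 to 115 and 45.1 to 109 FPKM for podocytes. Endothelial markers had 2 of 5 called lower in CKD and 5 of 5 did not pass the test in SZ against CKD, with sums of 95.3 to 133, 72.9 to 97.1 and 81.7 to 104 FPKM. The part of these cell types in the members' values was not tested.

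The rest of the pathway was read through 83 further genes, of which 80 were found and 71 tested. In CKD against NC 29 rose and 11 fell, with a median of 0.15, and in SZ against CKD 2 rose and 8 fell, with a median of -0.11. In SZ against NC 20 were higher and 2 lower. Of all genes tested, 50.3%, 11.0% and 21.1% were called in these comparisons, so calls of this number are common and no claim is made from them. Without CKD 2, CKD 5 and SZ 3 the counts were 31 and 13, then 5 and 8, then 23 and 4. On the TPM scale the first comparison gave 47 higher and 3 lower, so the split by direction depends on the scaling.

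Of the other BH3-only genes tested, 5 of 5 were called higher in CKD than in NC (median 1.04) and 2 were lower in SZ against CKD. Of all genes tested, 24.4% were called higher in the first of these comparisons and 6.82% lower in the second. Bik reached 1 FPKM in 1 NC library, 5 CKD and 3 SZ libraries, Bcl2l11 in 2, 6 and 6, and Pmaip1 in 4, 6 and 6. Bik, Bcl2l11 and Pmaip1 thus passed the filter on low values through the adenine groups, and the 5 of 5 is a description only. Pmaip1, which encodes NOXA, the BH3-only partner of MCL1, averaged 1.28 FPKM in NC (SD 0.58), 5.97 in CKD (SD 1.4) and 3.01 in SZ (SD 0.66). It rose by 1.62 (limma adjusted p = 5.4e-07) and fell by 0.78 from CKD to SZ (0.010). Bad, which binds BCL2L1 and BCL2, rose by 0.39 (limma adjusted p = 0.011) and fell by 0.49 (0.018), the fall being lost without SZ 4 (0.053) or with only the groups compared (0.067). Bmf rose by 1.03 (limma adjusted p = 3.2e-05) and Bcl2l11, which encodes BIM, by 1.05 (5.4e-05), and neither passed the test from CKD to SZ, at -0.15 (0.54) and -0.38 (0.14).

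Of 3 other guardians and pore formers tested, 2 rose and 1 fell in CKD against NC, where 24.4% of all genes were called higher and 26.0% lower. Bcl2a1, a guardian found mainly in blood cells, had the largest fitted change of these, with means of 3.06 FPKM in NC (SD 1.1), 36.7 in CKD (SD 17) and 14.8 in SZ (SD 7.9). It rose by 3.16 (limma adjusted p = 2.0e-07) and fell by 1.32 from CKD to SZ (0.013), beside the macrophage sums given above. Bcl2l2, which encodes BCL-W, fell by 0.63 (limma adjusted p = 0.00054), a call lost on the TPM scale (-0.21, adjusted p = 0.31) and with plain totals (0.067). Among 5 other BCL2-related genes, Bcl2l12 rose by 1.03 (limma adjusted p = 2.4e-05) and fell by 0.65 from CKD to SZ (0.014; 0.052 with only the groups compared), and the mitophagy receptor gene Bnip3 fell by 0.80 in CKD against NC (0.00078).

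In the death receptor group 3 of 9 tested genes rose in CKD against NC and 2 fell, and 0 were called in SZ against CKD by limma (0 by voom, and 1 higher at an unadjusted p under 0.05). Of all genes tested, 24.4% were called higher and 26.0% lower in the first comparison, and 11.0% were called in the second. No claim is made from these counts. Tnfrsf1a, the main receptor of TNF, rose by 1.74 (limma adjusted p = 1.9e-07), from 10.7 FPKM in NC (SD 2.1) to 38.4 in CKD (SD 7.8), and read 33.7 in SZ (SD 7.3). Tnfsf10, which encodes the ligand TRAIL, rose by 0.77 (limma adjusted p = 0.024), a call lost with the length correction (0.093) and without NC 4, CKD 3, CKD 4 or CKD 6 (0.058 to 0.064). Cflar, which encodes the caspase-8 inhibitor FLIP, fell by 0.56 (limma adjusted p = 0.034), but the call was lost with TPM (-0.12, adjusted p = 0.71), plain totals (-0.22), array weights (-0.32) and no low-value filter, and without NC 1, NC 6, CKD 2 or CKD 5 (0.061 to 0.086).

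The executioner caspase gene Casp6 did not pass the test in CKD against NC, at 0.17 (limma adjusted p = 0.21). It was called higher with TPM, at 0.62, with plain totals, at 0.49, and with scaling without the 20 most abundant genes, at 0.29. Casp9, the initiator caspase of the mitochondrial arm, differed by 0.15 (limma adjusted p = 0.22), and was called with TPM, with plain totals and without CKD 2, CKD 5 and SZ 3 (0.23, adjusted p = 0.043). The 3 inflammatory caspase genes tested all rose, where 24.4% of all genes were called higher. Casp12 read 0.210 to 1.19 FPKM in NC, and its lowest values were 1.23 in CKD and 1.14 in SZ. It passed the filter on low values through the adenine groups, so the 3 of 3 is a description only. Casp1, the caspase of inflammasomes, rose by 1.51 (limma adjusted p = 1.9e-06) and fell by 0.66 from CKD to SZ (0.025; lost without CKD 3, CKD 5, SZ 1, SZ 4 or SZ 6, at 0.0503 to 0.068), and Casp12 rose by 1.40 (1.2e-05).

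Genes that act between the mitochondrion and the executioners moved in both directions. Apaf1, the scaffold of the apoptosome, rose by 0.93 (limma adjusted p = 0.00011), whereas Cycs, which encodes cytochrome c and serves respiration in every cell, fell by 1.29 (0.00013), from 435 FPKM in NC (SD 92) to 187 in CKD (SD 85). Vdac1, the outer membrane channel, fell by 0.98 (limma adjusted p = 1.1e-05) and was higher in SZ than in CKD by 0.53 (0.020; 0.053 with TPM, 0.058 with the length correction, 0.055 without SZ 4 and 0.067 with only the groups compared). Dnm1l, the mitochondrial fission gene, was called lower by 0.29 (limma adjusted p = 0.035; above the threshold without any of NC 4, NC 5, NC 6, CKD 4, CKD 5 or CKD 6, at 0.0504 to 0.088), and this turned to 0.14 with TPM and 0.04 with plain totals. The inhibitor gene Birc3 rose by 3.02 (limma adjusted p = 2.6e-08), from 1.18 FPKM in NC (SD 0.32) to 17.9 in CKD (SD 6.7), and Birc2 rose by 0.51 (0.00027). Xiap, the direct inhibitor of executioner caspases, differed by -0.86 (SE 0.43, limma adjusted p = 0.11), with a lowest value of 2.05 FPKM in CKD. Of 6 executioner substrates, Parp1 rose by 0.50 (limma adjusted p = 0.00014) and the other 5 did not pass the test.

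**Figure D5:**
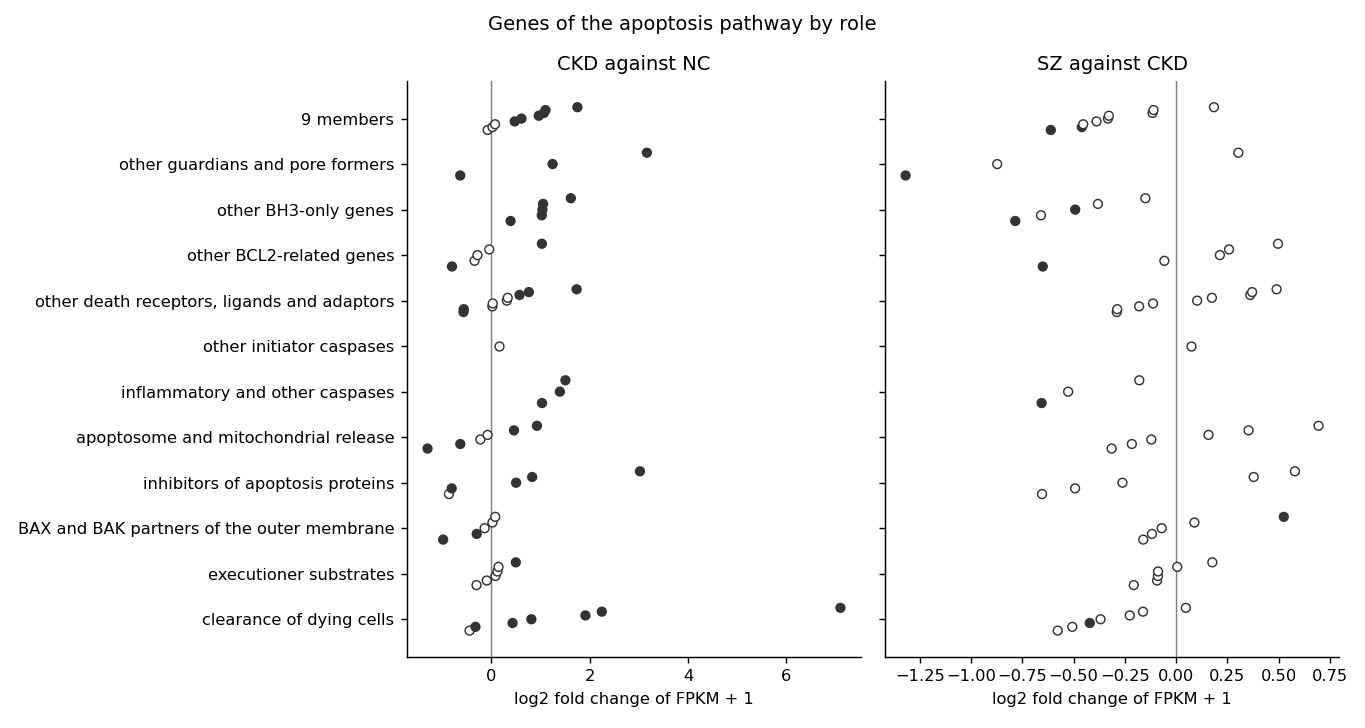
Log2 fold change on the log2(FPKM + 1) scale of tested pathway genes in 12 lists by role, in CKD against NC and in SZ against CKD, with filled points for genes called at an adjusted p under 0.05. All 5 other BH3-only genes are filled above 0 in the first comparison, where 24.4% of all genes tested were called higher. The apoptosome group has called genes on both sides of 0 there.

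Mdm2, which encodes a ubiquitin ligase, differed by 0.10 (limma adjusted p = 0.42) in CKD against NC. It was called higher there with TPM, at 0.54 (limma adjusted p = 0.00041), and with plain totals, at 0.42 (0.00067). Cdkn1a, the cell cycle inhibitor p21, rose by 1.65 (limma adjusted p = 7.4e-05) and was called lower by 0.87 in SZ against CKD (0.046), a call ended by the pseudocount of 0.1 (0.060), by leaving out CKD 2, CKD 5 and SZ 3 (-0.72, 0.16) and by leaving out most single libraries (up to 0.12). Phlda3 rose by 2.05 (limma adjusted p = 1.4e-06) and fell by 0.99 (0.015). Sesn2 went the other way, falling by 0.82 in CKD (limma adjusted p = 5.6e-05; -0.39 and adjusted p = 0.058 with TPM) and being higher in SZ by 0.74 (0.0041). Of 7 genes for the clearance of dying cells, 5 rose and 1 fell in CKD, where 24.4% of all genes were called higher and 26.0% lower. Havcr1, at 0.128 to 1.13 FPKM in NC, and Stab1, at 0.499 to 1.005, passed the filter on low values through the adenine groups. The count is thus a description only. Axl, a receptor for dying cells, rose by 2.25 (limma adjusted p = 1.4e-07), and its ligand gene Gas6 rose by 0.43 (0.00062) and fell by 0.42 from CKD to SZ (0.0098). Havcr1, the tubular injury marker KIM-1 and a receptor for apoptotic cells, went from 0.680 FPKM in NC (SD 0.43) to 230 in CKD (SD 61) and 189 in SZ (SD 85), a rise of 7.10 (limma adjusted p = 5.7e-12), and differed by -0.37 from CKD to SZ (0.38).

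The genes most like each called member were found by the root mean square difference of log2(FPKM + 1), each gene centred on its mean over the 18 libraries. The search covered 7695 or 7696 protein-coding genes with a gene symbol and a mean of at least 5 FPKM, so lower genes could not be found. Nearest to Bax were Eif3g, at 0.133, and Ppie, at 0.140. Nearest to Bak1 were Shisa5 (0.121) and Txndc5 (0.135), and nearest to Bbc3 were Mob3a (0.173) and Efhd2 (0.1803). Mcl1 lay closest to Fbxl14 (0.115) and Baz1a (0.142). Casp8 lay closest to Lyn (0.144), a kinase of blood cells, and to Itpripl2 (0.156). For Fas the nearest gene was another member, Casp8 (0.202), followed by Fmnl3 (0.212). These distances describe 18 libraries that share the group differences.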

How the data were processed

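The authors deposited 1 table of FPKM values for 32116 genes in 18 libraries of rat kidney (6 per group), made from Trizol-extracted total RNA with a TruSeq kit per the labels' protocols. HISAT2 2.0.5 and the build mRatBN7.2 are named in the submitters' processing notes. How reads were counted, with which strand setting and annotation, is not given in the sources, so reads of overlapping genes cannot be told apart. FPKM times gene length gave whole reads for 100% of values above 0, within a tolerance of 0.01, and these gave the library totals. Rows that share a name or description with Bax, Bcl2l1 or Mcl1 (5 in all) reached at most 0.869 FPKM.

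Genes with FPKM of at least 1 in at least 6 libraries (13851) entered limma 3.58.1 (R 4.3.3) on the log2(FPKM + 1) scale. The fit held the means of the 3 groups and an intensity trend. The 2-sided p-values were adjusted by Benjamini-Hochberg over all genes tested, and a gene was called at an adjusted p under 0.05. This scale understates changes of low genes. Each adjusted p is limma's. The step was tested on simulated data. The 31 alternatives covered the pseudocount, filter, scaling, fit, weights, trend, voom on recovered reads, replicate block, gene length (lowess span 0.3) and libraries left out. Promoters came from RefSeq (GRCr8). The members and lists were chosen with earlier results of these data known. All 9 members are named. Of each other list, at most 2 called genes with the smallest adjusted p per comparison are named, or the most abundant gene where none is called, with 9 genes named whatever their values. Some genes of the lists are not reported here.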

Additional observations from a re-analysis of the deposited data

Results flagged for a closer look

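In 39 checks of a group of 6 libraries, 7 had a highest or lowest library whose gap to the next exceeded Dixon's 95% critical share of the group's range, and chance alone gives about 1 in 20. For Bax, CKD 5 stood at 4.76 and SZ 3 at 3.904 on the log2(FPKM + 1) scale. For Bak1, NC 6 was low, at 2.57. The log2 ratio of Bax to Bcl2 stood at 2.50 in SZ 3, and that of Bax to Mcl1 at -2.53 in the same library. The ratio of Bax to Bcl2l1 stood at -0.24 in CKD 5 and at -1.32 in NC 4. CKD 5 and SZ 3 hold 5 of the 7, all of them on Bax, and have the steepest length slopes (-0.31 and -0.25). The part of the slope in these values was not tested.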

How the results depend on the processing

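Of 828 alternative values of the members' 27 fold changes, 784 kept their direction and their side of the threshold, and 15 fold changes did so under every alternative run. Counts of members called in SZ against CKD, 2 as reported, were 1 with a mean FPKM of at least 5, 1 with only the groups compared, 5 with array weights, 1 without CKD 2, CKD 5 and SZ 3, and 1 to 4 with each library left out. Over all genes this comparison called 554 with only the groups compared, 2830 with array weights and 533 to 3058 with each library left out (3058 without SZ 3 and 533 without SZ 4), against 1521. In SZ against NC 2 members were called with a mean FPKM of at least 5, which sets Bbc3, Fas and Bcl2 aside, and over all genes 1627 with that filter and 5492 with array weights, against 2919. In CKD against NC that filter gave 4447 genes, against 6973. The cause of these moves was not tested, apart from the genes the filter sets aside.

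The estimates that changed sign passed the test in neither direction under the settings given next, and of these only Dnm1l in CKD against NC was called as reported. In CKD against NC, Bid was -0.027 with the length correction, -0.010 without CKD 2, CKD 5 and SZ 3 and -0.027 to 0.079 with each library left out. There Bcl2 was 0.28 with TPM, 0.16 with plain totals, 0.018 without the 20 most abundant genes and 0.10 with the length correction. Bcl2l1 was -0.051 with array weights and -0.0097 without the 3 libraries, and Dnm1l was 0.14 with TPM and 0.035 with plain totals. In SZ against NC, TPM, plain totals and scaling without the 20 most abundant genes gave 0.21, 0.12 and 0.031 for Bid and 0.26, 0.17 and 0.084 for Bcl2l1. With each library left out Bcl2l1 ran from -0.12 to 0.017 and Mcl1 from -0.031 to 0.062. In SZ against CKD, TPM and plain totals gave -0.061 and -0.040 for Casp9, -0.052 and -0.033 for Dnm1l and -0.12 and -0.10 for Mdm2. Without the 3 libraries Casp9 was -0.058, and Mdm2 ran from -0.040 to 0.080 with each library left out.

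With replicate number as a block, 6, 2 and 4 members were called in the 3 comparisons, and 6636, 1195 and 2584 of all genes. It changed no member's call, but ended those of Dnm1l in CKD against NC (adjusted p = 0.052) and Cdkn1a in SZ against CKD (0.071). Only 4 of 18 same-numbered pairs correlated over 0.1 (r from -0.36 to 0.23), and 5 of 36 best matches were the own number. Low correlations cannot exclude a pairing by number, which the labels do not state. The mean Bax to Bcl2 ratio in NC was 1.91 with a pseudocount of 0.1 and 1.96 with none (chosen after seeing the data), and that of Bax to Bcl2l1 was -1.63 with none. At 12 reads in its lowest library, Fas is the member most limited by depth.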
